A study of Homo sapiens with 12 samples.

Results

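Knockdown of both forms of β-catenin was compared with a control in HepG2 cells. The comparison sets the 3 arrays titled sißCat-both against the 3 titled siCtrl, 6 of the 12 arrays of the series, and covers the 14884 genes that carry a gene symbol, each represented by its probe set of highest mean over the 12 arrays. HepG2 is an established human liver tumour line that keeps many hepatocyte functions. On 1 of its β-catenin (CTNNB1) alleles part of the coding sequence is missing. With it go the phosphorylation sites through which GSK3 marks the protein for destruction, so a shortened, long-lived β-catenin is made beside the full-length one. All 4 groups were HepG2 cells given a small interfering RNA (siRNA) and collected at 120 h: siCtrl received a control RNA, sißCat-both an RNA against both forms, sißCat-mut an RNA against the shortened form and sißCat-WT an RNA against the full-length form. Each group held 3 arrays, and the latter groups serve here only to show where sißCat-both stood apart. The labels give triplicates without saying that they were separate cultures, so p-values rest on how far these arrays differ within a group, and that variation may be technical only. Probe sets of the targeted gene were not analysed here, so the groups rest on the labels and the depth of the knockdown is unknown. The groups differ in the siRNA given, so loss of the targeted forms and other effects of that RNA cannot be told apart.

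β-catenin has a role at the membrane and another in the nucleus. At adherens junctions it ties cadherins to the actin cytoskeleton, and in canonical Wnt signalling it enters the nucleus and serves as co-activator for TCF and LEF transcription factors. Among the genes switched on are many that restrain the pathway, such as AXIN2, NKD1, NOTUM, RNF43 and ZNRF3, which makes them common readouts of its activity. In the liver the pathway is known for zonation, favouring genes of hepatocytes near the central vein over those near the portal vein, and activating β-catenin mutations are frequent in liver tumours.

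Values are log2 intensities, so a difference of 1 is a 2-fold change. Differences are sißCat-both minus siCtrl unless another group is named, with the standard error (SE) of the limma fit over all 12 arrays. A gene is said to have risen or fallen at a limma adjusted p under 0.05. By that rule 5000 genes changed, or 33.6% of those tested, with 2309 higher (15.5%) and 2691 lower (18.1%). At least 2-fold changes numbered 584 (3.92%), 278 higher (1.87%) and 306 lower (2.06%), and the 3 arrays of one group lay wholly above or below the other 3 for 43.8% of genes. The median difference over all genes was -0.006. Against sißCat-mut 3297 genes differed (22.2%), 1575 higher (10.6%) and 1722 lower (11.6%), and against sißCat-WT 5383 differed (36.2%), 2397 higher (16.1%) and 2986 lower (20.1%). These comparisons share the sißCat-both arrays. Of the 222 genes named below as called against siCtrl, the arrays of both groups overlap for 1, IGF1.

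Replicate arrays of siCtrl correlated at r = 0.9962 to 0.9969 across genes and those of sißCat-both at 0.9938 or more, with array weights of 0.635 to 0.707 against 1.02 to 1.84 for siCtrl. Principal component 1 took up 56.76% of the variance and set siCtrl (-19.16 to -18.78) against sißCat-both (26.68, 31.56 and 33.69). The first sißCat-both array lay nearest to the controls. Of the 2691 genes called lower it read highest of its group in 1572 (58.4%), against 34.0% of all genes, and results that turn on it are also given without it. Levels near the array median of 4.71 to 4.79 lie close to the floor, and the size of a change from or to such a level is uncertain. Measured hepatocyte markers (12 genes) averaged 11.53 to 11.57 per siCtrl array and 12.06 to 12.07 per sißCat-both array, and 10 rose and 1 fell. Markers of endothelial cells (8 genes, 4.19 to 4.24 and 4.10 to 4.25), fibroblasts (6 genes, 4.35 to 4.54 and 4.33 to 4.39) and neural cells (8 genes, 4.93 to 4.98 and 4.88 to 5.05) were near the floor in both groups. Cholangiocyte markers averaged 7.55 to 7.66 and 7.38 to 7.45 over 9 genes, of which 1 rose and 3 fell. Immune markers averaged 7.06 to 7.08 and 7.10 to 7.30 over 6 genes, of which 3 rose and 1 fell. The 1 that fell was lysozyme (LYZ), by 1.13 from control levels of 12.68 to 12.75. In bulk samples fewer cells of a kind and less RNA per cell cannot be told apart.

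**Figure D1:**
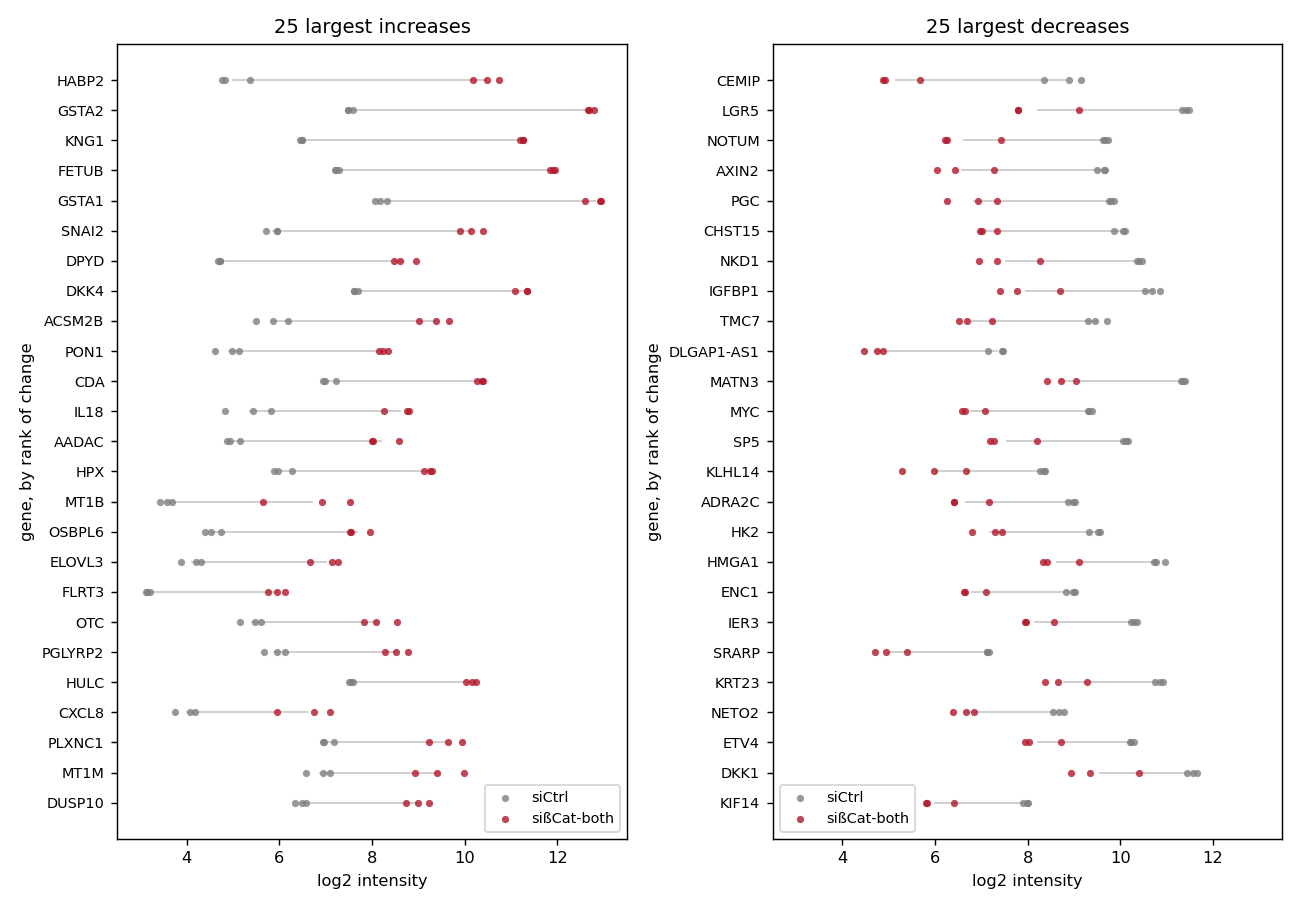
Log2 intensity (x axis) of the 25 genes that rose most and the 25 that fell most in sißCat-both, 1 gene a row in order of the change, with 1 point per array (grey siCtrl, red sißCat-both, 3 each) and a line between the group means. No point of one group lies among those of the other, as the choice of these genes required, and for LGR5, NOTUM and DKK1 a single red point lies nearer the controls than the rest.

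The 25 genes that rose most were of several kinds. CDA, which deaminates cytidine, rose by 3.29, the medium-chain acyl-CoA synthetase ACSM2B, which has a near copy in the genome, by 3.5 and HULC, a long noncoding RNA known from liver cancer, by 2.59. The semaphorin receptor PLXNC1 rose by 2.57, DUSP10, a phosphatase of stress kinases, by 2.52 and PGLYRP2, an amidase that cleaves bacterial peptidoglycan, by 2.61. Among the 25 that fell most, pepsinogen C (PGC) fell by 2.97, the chondroitin sulfotransferase CHST15 fell by 2.89 and the matrix protein matrilin 3 (MATN3) fell by 2.63. The adrenergic receptor ADRA2C fell by 2.30, the keratin KRT23 fell by 2.07, the Kelch protein KLHL14 fell by 2.36 and its relative ENC1 fell by 2.16. In all of these the arrays of both groups lay apart, as the choice required.

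Wnt target and feedback genes fell. Of 24 measured, 13 were lower and 3 higher, with a median difference of -0.79 against -0.006 over all genes. AXIN2, a scaffold of the complex that degrades β-catenin, read 9.68, 9.50 and 9.65 in siCtrl and 7.28, 6.04 and 6.44 in sißCat-both. SP5, a zinc-finger repressor induced by Wnt, read 10.17, 10.12 and 10.06 against 8.20, 7.18 and 7.28, and fell by 2.56 ± 0.21 (SE over 3 arrays a group, with a limma adjusted p of 8.36e-07). MYC, the growth-promoting transcription factor, read 9.39, 9.31 and 9.33 against 7.08, 6.66 and 6.58, a 5.95-fold fall. In all 3 genes every sißCat-both array was below every control array, and the first one was the least reduced. RNF43 and ZNRF3, membrane ubiquitin ligases that remove Wnt receptors, fell 3.12-fold and 3.75-fold, and APCDD1, a surface inhibitor of Wnt ligands, fell by 1.76 ± 0.13. The secreted inhibitor DKK1 read 11.58, 11.45 and 11.65 against 10.41, 9.34 and 8.93, and SOX9, a progenitor and bile duct factor, fell by 1.55 ± 0.09. CCND1, cyclin D1, fell by 0.66 ± 0.07. Without the first sißCat-both array 14 of the 24 were lower.

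Not every listed target went down. DKK4, a secreted Wnt inhibitor of the same family as DKK1, read 7.61, 7.61 and 7.69 in siCtrl and 11.34, 11.34 and 11.09 in sißCat-both, a rise of 3.62 ± 0.12 (limma adjusted p = 3.24e-10). PROX1, a homeobox factor of hepatoblasts, rose by 0.27 ± 0.07. BAMBI, a decoy receptor of TGF-β signalling, rose by 0.51 ± 0.15 but missed the threshold without the first siCtrl or the third sißCat-both array (adjusted p = 0.0613 and 0.0644). DKK4 and DKK1 thus changed in opposite directions. The difference of TBX3 was -0.14 (limma adjusted p = 0.287), that of LEF1 -0.10 and that of CD44 0.09, and none of these passed the test.

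Against sißCat-mut the Wnt target list had 4 genes higher (16.7%) and 2 lower (8.33%) and a median of 0.01, where 10.6% and 11.6% of all genes were called. LGR5, the R-spondin receptor, read 8.17, 6.57 and 6.02 in sißCat-mut and 9.10, 7.79 and 7.79 in sißCat-both, a difference of 1.31 ± 0.43 (limma adjusted p = 0.0446), and these arrays overlap. For MYC the difference from sißCat-mut was -0.13 (adjusted p = 0.47) and for AXIN2 0.44 (adjusted p = 0.275). DKK4 stood higher in sißCat-both than in sißCat-mut by 1.84 and BAMBI by 1.19, while SOX9 was lower by 0.67. Against sißCat-WT 17 of the 24 were lower and 2 higher.

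The promoter of SP5 is shown because it is the Wnt target with the largest fall whose start region was at hand and holds a TCF motif. The letters searched were CTTTGAT on both strands, in the 250 bases before each RefSeq gene start (GRCh38.p14). They occur in 1.69% of the 10749 tested genes with a promoter sequence and in 2 of 10 Wnt targets, SP5 and FGF18. The stretch is chr2:170715087-170715336 on the plus strand, written 5′ to 3′ with the motif in capitals, which begins 109 bases before the start.
SP5: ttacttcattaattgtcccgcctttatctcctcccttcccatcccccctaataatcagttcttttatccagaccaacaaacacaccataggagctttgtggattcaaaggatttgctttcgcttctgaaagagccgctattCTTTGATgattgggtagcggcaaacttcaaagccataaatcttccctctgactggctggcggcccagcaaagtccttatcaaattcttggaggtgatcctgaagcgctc
A match of letters is a description and not evidence of binding.

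Wnt ligands and receptors were called about as often as genes at large. Of 33 ligands, receptors and secreted modulators 5 rose and 5 fell, 15.2% each way beside 15.5% and 18.1% of all genes, with a median of -0.01, and the number that rose was 3 without the third siCtrl array. Among the Frizzled receptors, which bind Wnt ligands, FZD5 read 8.83, 8.82 and 8.83 in siCtrl and 9.73, 9.74 and 9.66 in sißCat-both (0.89 ± 0.07), while FZD3 fell by 0.69, FZD2 by 0.60 and FZD4 by 0.31. The co-receptor LRP5 fell by 0.40 ± 0.08. KREMEN1, which clears such co-receptors together with Dickkopf proteins, fell 2.13-fold. Of 21 genes of the destruction complex, its partners and nuclear co-factors, 7 rose and 4 fell (median 0.04). GSK3B, the kinase that marks β-catenin, rose by 0.51 ± 0.07 and its relative GSK3A fell by 0.33 ± 0.09. AXIN1, a scaffold of the complex, fell by 0.41, and the co-activator BCL9 rose by 0.28.

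Junction genes changed in both directions. JUP, plakoglobin, the closest relative of β-catenin and able to take its place at cadherins, read 9.08, 9.14 and 9.18 in siCtrl and 10.15, 10.09 and 9.98 in sißCat-both, a 1.92-fold rise (limma adjusted p = 8.36e-07). Of 21 genes of the cadherin and catenin list 8 were measured, none of them a cadherin. JUP was the 1 that rose (12.5%), and 4 fell (50%): ARVCF, PKP4, NECTIN2 and VCL, by 0.48 to 0.25. VCL, vinculin, missed the threshold without the second siCtrl array or without the third (adjusted p = 0.0713 and 0.0541). Of 28 tight junction and desmosome genes 12 rose (42.9%) and 7 fell (25%), with a median of 0.06. Among all genes 15.5% rose and 18.1% fell. CLDN1, a sealing claudin of hepatocytes, rose 3.43-fold from 10.21, 10.30 and 10.47 to 12.10, 12.15 and 12.06, and MARVELD3, MARVELD2 and occludin (OCLN) rose by 1.17, 0.86 and 0.81. Of the desmosome, desmoglein DSG2 fell by 0.76, the plakophilins PKP2 and PKP3 by 0.73 and 0.51 and desmoplakin (DSP) by 0.50, while desmocollin DSC2 rose by 0.33. CLDN4 fell by 1.08 ± 0.08. The tight junction scaffold TJP1 differed by 0.05 (adjusted p = 0.665).

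Genes for proteins that hepatocytes secrete into plasma rose, several of them from the array floor. Of 32 carriers and other secreted proteins 23 rose (71.9%) and 3 fell (9.38%), with a median of 0.70. Of 21 coagulation and fibrinolysis genes 14 rose (66.7%) and 2 fell (9.52%), with a median of 0.58. Among all genes 15.5% rose and 18.1% fell. HPX, haemopexin, the plasma scavenger of haem, read 6.27, 5.88 and 5.97 in siCtrl and 9.29, 9.24 and 9.12 in sißCat-both. PON1, the paraoxonase of high-density lipoprotein, rose from 4.98, 4.61 and 5.13 to 8.16, 8.24 and 8.35, and HABP2, a protease that activates factor VII, from 4.82, 5.37 and 4.77 to 10.17, 10.75 and 10.49. These 3 genes went from near or little above the floor to clear signal in every array. Among genes already bright, albumin (ALB) rose by 0.46, transferrin (TF) by 0.24, transthyretin (TTR) by 0.91 and the fibrinogen chains FGB, FGA and FGG by 1.27, 0.58 and 0.43. F11, coagulation factor XI, rose by 1.45 ± 0.10, vitronectin (VTN) by 1.40 ± 0.08 and F9, from 3.55, 3.15 and 3.49 to 5.21, 4.46 and 5.73, by 1.74 ± 0.24.

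A few secreted factors went the other way or did not pass the test. IGFBP1, the insulin-regulated binding protein of insulin-like growth factors, fell 6.63-fold, ceruloplasmin (CP), the copper carrier, by 0.78 and CPB2, an inhibitor of fibrinolysis, by 0.77. Prothrombin (F2) differed by 0.01, protein C (PROC) by -0.11 and ITIH2 by -0.17, with limma adjusted p of 0.92, 0.337 and 0.0693. Of 21 complement genes 9 rose (42.9%) and 3 fell (14.3%), beside 15.5% and 18.1% of all genes. C6, a part of the membrane attack complex, rose by 2.03 ± 0.12 and C2 and C5 by 1.17 and 0.96. The 3 that fell were CFB, C4A and C4B, by 0.34, 0.31 and 0.31, of which C4A and C4B are near-identical copies; the 3 became 1 without the first siCtrl array.

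Against sißCat-mut the plasma lists split rather than rose. Carriers had 9 genes higher (28.1%) and 10 lower (31.2%), and coagulation genes 5 (23.8%) and 7 (33.3%). Of all genes 10.6% were higher and 11.6% lower there. FETUB, fetuin B, was higher than in sißCat-mut by 1.33, AFM, afamin, by 1.67 and the iron hormone hepcidin (HAMP) by 2.44. PLG (plasminogen), which has near copies in the genome, was lower by 0.71, TTR by 0.54 and A1BG by 1.72. Against siCtrl all 6 genes had risen, A1BG by 0.75 ± 0.17.

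Neighbouring genes on chromosome 3 shared the rise. In the RefSeq order AHSG, FETUB, HRG and KNG1 follow each other, and all are liver-secreted members of the cystatin superfamily. KNG1, kininogen, read 6.49, 6.48 and 6.44 in siCtrl and 11.26, 11.25 and 11.19 in sißCat-both. FETUB read 7.19, 7.29 and 7.22 against 11.91, 11.95 and 11.85. HRG, histidine-rich glycoprotein, went from 3.5, 3.79 and 3.70 to 5.96, 5.82 and 6.24. AHSG, fetuin A, was at 12.81, 12.85 and 12.88 in siCtrl and rose by 0.21 ± 0.07, which missed the threshold without any 1 of 4 arrays (adjusted p up to 0.0865). The next measured gene before AHSG, TBCCD1, differed by -0.21 (limma adjusted p = 0.274). KNG1 has 2 probe sets, of which the brighter one is given. With their mean the rise was 2.45 in place of 4.76, so the other probe set changed little.

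LEAP2, a liver peptide that opposes ghrelin at its receptor, is shown for an HNF1 motif in its promoter. It read 7.98, 7.71 and 7.61 in siCtrl and 9.33, 9.36 and 9.45 in sißCat-both, a 3.07-fold rise (limma adjusted p = 2.08e-06). The letters GTTAAT, on either strand, are the half-site of the hepatocyte factor HNF1. They occur in 4.28% of all promoters searched and in 6 of 22 carrier genes, which are ALB, AFM, IGF1, LEAP2, LECT2 and HGFAC. Of these IGF1 fell by 0.28 and the other 5 rose. Leaving out single arrays took IGF1 and LECT2 to adjusted p of up to 0.157 and 0.128. The stretch is chr5:132873418-132873667 on the plus strand, GRCh38.p14, with the motif in capitals 117 bases before the start.
LEAP2: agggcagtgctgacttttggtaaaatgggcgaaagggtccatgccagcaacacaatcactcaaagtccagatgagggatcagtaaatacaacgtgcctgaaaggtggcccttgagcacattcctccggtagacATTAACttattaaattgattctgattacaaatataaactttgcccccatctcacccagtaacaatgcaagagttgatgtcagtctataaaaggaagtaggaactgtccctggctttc

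Enzymes that break down amino acids rose, including those of the urea cycle that were measured. Of 34 such genes 21 rose (61.8%) and 4 fell (11.8%), with a median of 0.49, beside 15.5% and 18.1% of all genes. OTC, ornithine transcarbamylase of the urea cycle, read 5.15, 5.48 and 5.61 in siCtrl and 8.08, 7.82 and 8.54 in sißCat-both, a rise of 2.73 ± 0.19 (limma adjusted p = 1.7e-07). BHMT, which remethylates homocysteine with betaine, read 7.05, 7.17 and 6.77 against 9.52, 9.0 and 9.34. GNMT, the glycine methyltransferase that consumes S-adenosylmethionine, rose 3.78-fold. In these genes the lowest sißCat-both array was more than 1 unit above the highest control. ASS1, argininosuccinate synthase, rose by 0.75, ornithine aminotransferase (OAT) by 0.99 and the tyrosine aminotransferase TAT by 1.40. AHCY, which hydrolyses S-adenosylhomocysteine, fell by 0.53 ± 0.06, and 4-hydroxyphenylpyruvate dioxygenase (HPD) differed by -0.12 (adjusted p = 0.363). Against sißCat-mut 14 of the 34 were higher (41.2%) and 5 lower (14.7%), beside 10.6% and 11.6% of all genes.

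Genes of portal-side and central-side hepatocytes were listed separately, and 13 of 29 periportal and 13 of 30 pericentral genes were measured. The measured pericentral genes include no cytochrome P450, so the lists give a partial view of the zones. Of 13 periportal genes 9 rose (69.2%) and 1 fell (median 0.57), the latter SOX9, where 15.5% and 18.1% of all genes did. HAL, histidine ammonia-lyase, read 5.51, 5.59 and 6.19 in siCtrl and 8.0, 8.16 and 8.43 in sißCat-both, and PCK1, the gluconeogenic carboxykinase, rose by 1.36 ± 0.12. AGXT and UROC1 rose by 1.06 and 0.78. Of 13 pericentral genes 5 rose (38.5%) and 1 fell (7.69%), with a median of 0.18, and the number that rose was 3 without the first sißCat-both array. GLUL, glutamine synthetase and a classic β-catenin target of pericentral hepatocytes, read 8.61, 8.60 and 8.70 against 8.90, 8.74 and 8.81, a difference of 0.18 ± 0.08 (limma adjusted p = 0.104). Under 1 of 21 alternatives, renewed quantile normalization, GLUL passed the threshold. AHR, the dioxin receptor, differed by -0.17 without passing the test. No test compared the lists with each other.

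Genes that burn fatty acids rose, and those that make them were mixed. Of 15 genes of fatty acid oxidation and ketone bodies 9 rose (60%) and 0 fell, where 15.5% and 18.1% of all genes did. CPT1A, the gate of mitochondrial fatty acid import, read 8.33, 8.53 and 8.35 in siCtrl and 10.17, 10.25 and 10.34 in sißCat-both. Its regulator PPARA rose 2.62-fold and the acyl-CoA synthetase ACSL1 by 1.45 ± 0.10. Among 27 genes of fatty acid and triglyceride synthesis 10 rose (37%) and 4 fell (14.8%), or 7 without the first sißCat-both array. That array was the highest of its group in 23 of the 27, against 34.0% of all genes. It averaged 8.77 over this list, the other sißCat-both arrays 8.55 and 8.58, and siCtrl 8.45 to 8.47. DGAT2, an enzyme of triglyceride assembly, rose by 1.38, while ACLY, the source of cytosolic acetyl-CoA, fell by 0.46. The desaturase SCD differed by 0.01 and did not pass the test. Of 18 cholesterol genes 12 rose (66.7%) and 1 fell (5.56%): mevalonate kinase (MVK) rose 2.01-fold, and INSIG2, which holds back the sterol response, fell by 1.23. The first sißCat-both array was the highest of its group in 15 of the 18. It averaged 9.25 over the list, the other sißCat-both arrays 9.1 and 9.07, and siCtrl 8.81 to 8.89. Against sißCat-mut 0 of the 18 cholesterol genes were higher and 7 lower (38.9%, beside 11.6% of all genes), among them FDPS by 0.78. Apolipoproteins APOA4, APOE, APOA1 and APOC3 rose by 1.47, 0.79, 0.77 and 0.68.

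Detoxification genes held some of the largest changes. GSTA1 and GSTA2, glutathione transferases of hepatocytes, rose by 4.62 ± 0.17 and 5.21 ± 0.23 (limma adjusted p = 5.54e-10 and 3.78e-09). GSTA2 read 7.48, 7.58 and 7.47 in siCtrl, 12.68, 12.67 and 12.79 in sißCat-both, 10.27, 10.14 and 9.89 in sißCat-mut and 5.69, 4.42 and 4.69 in sißCat-WT. The 4 groups did not overlap. Other enzymes of foreign compounds rose as well, 9 of 14 measured (64.3%) with 1 lower (7.14%), beside 15.5% and 18.1% of all genes. DPYD, which degrades pyrimidines and fluorouracil, rose by 3.98, the esterase AADAC by 3.21, the carboxylesterase CES1 by 1.94 and aldehyde dehydrogenase ALDH2 by 0.73. FMO5, a flavin monooxygenase, fell by 1.17 ± 0.08. CES1 was higher than in sißCat-mut by 2.04 and than in sißCat-WT by 3.57.

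The upstream sequences of the transferase pair are shown because the genes moved together and share both motifs. Over the 250 bases the sequences are identical at 243 positions (97.2%). The genes are close paralogs, so values for the single gene are uncertain, and the identity of their transcripts was not measured. Capitals mark CTTTGAT, 209 bases before the start, and ATTAAC, the HNF1 letters on the other strand, 180 bases before it. Both lie on the minus strand of chromosome 6 in GRCh38.p14, GSTA1 at chr6:52803817-52804066 and GSTA2 at chr6:52763476-52763725. Among the 25 genes that rose most, 19 had a promoter sequence, of which 4 held the TCF letters (GSTA1, GSTA2, OTC and CXCL8) and 2 the HNF1 letters. Among the 25 that fell most, 2 of 14 held the TCF letters, SP5 and SRARP.
GSTA1: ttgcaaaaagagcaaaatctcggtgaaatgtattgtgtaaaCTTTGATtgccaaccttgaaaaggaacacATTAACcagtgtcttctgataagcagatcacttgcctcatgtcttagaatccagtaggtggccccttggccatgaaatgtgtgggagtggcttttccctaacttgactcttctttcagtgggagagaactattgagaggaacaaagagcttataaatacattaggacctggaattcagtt
GSTA2: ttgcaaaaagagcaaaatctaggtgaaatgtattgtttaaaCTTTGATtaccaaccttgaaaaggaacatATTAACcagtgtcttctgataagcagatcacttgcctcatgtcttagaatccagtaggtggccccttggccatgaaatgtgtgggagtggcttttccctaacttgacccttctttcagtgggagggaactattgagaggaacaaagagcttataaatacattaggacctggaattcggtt

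More glutathione and NRF2 genes fell than rose, and the largest group did not pass the test on either side. Of 31 such genes 6 rose (19.4%) and 11 fell (35.5%), with a median of -0.13, beside 15.5% and 18.1% of all genes. GSTA1 and GSTA2 were among the 6 that rose. GPX2, a glutathione peroxidase, read 9.43, 9.54 and 9.59 in siCtrl and 7.98, 7.56 and 7.60 in sißCat-both, a 3.5-fold fall. TKT and TALDO1 of the pentose phosphate pathway fell by 1.12 and 0.95, glutathione reductase (GSR) fell by 0.75 and haem oxygenase HMOX1 by 0.71. NFE2L2, which encodes NRF2, differed by -0.18 (limma adjusted p = 0.0556, or 0.0482 without the third sißCat-both array). Metallothioneins, which bind zinc and copper, rose: of 12 measured genes, which include their regulator MTF1, 8 rose (66.7%) and 0 fell, with a median of 0.86. MT1M read 6.58, 6.94 and 7.09 against 9.41, 9.98 and 8.92, MT1G rose by 1.03 and MT2A by 0.68. MT1B went from 3.58, 3.68 and 3.42 to 6.92, 7.53 and 5.65, the widest spread of the family in sißCat-both. Members of this family are alike in sequence, so single genes are uncertain, and MTF1, which answers to metals, differed by 0.21 (adjusted p = 0.119).

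Glycolysis and hypoxia response genes fell. Of 19 measured, 13 were lower and 0 higher, with a median of -0.53. HK2, the hexokinase typical of tumours, read 9.33, 9.52 and 9.57 in siCtrl and 7.30, 6.81 and 7.44 in sißCat-both, a 4.89-fold fall (limma adjusted p = 8.54e-08). Along the pathway GPI, PGK1 and PGAM1 fell by 1.01, 1.08 and 1.02, GAPDH by 0.59, TPI1 by 0.53 and lactate dehydrogenase A (LDHA) fell by 0.55. Hypoxia response genes outside glycolysis fell or did not pass the test, and 0 rose. BNIP3L fell by 0.99, BNIP3 by 0.44, the angiogenic factor VEGFA by 0.69 and the prolyl hydroxylase EGLN1 fell by 0.55, whereas EGLN3, NDRG1 and CA12 differed by -0.24, 0.22 and 0.33 and did not pass the test (limma adjusted p = 0.0781, 0.251 and 0.0595). EGLN3 passed without the third sißCat-both array (adjusted p = 0.0393) and CA12 without the first siCtrl array (adjusted p = 0.0356). Erythropoietin (EPO), also hypoxia-inducible, differed by 0.36 (adjusted p = 0.0503). It lay at the threshold, which it passed under 9 of 21 alternatives, with adjusted p of 0.0483 with the replicate block, 0.0311 with only the groups compared and 0.208 without the third sißCat-both array. The hexokinase HK1 differed by -0.04. The list was lower than after sißCat-mut as well, 12 genes (63.2%) against 0, with a median of -0.48 where all genes had -0.016. Of all genes 11.6% were lower there. HK2 read 8.56, 8.54 and 8.62 in sißCat-mut, between the other groups and overlapping neither.

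Feedback genes of the ERK kinase pathway and ETS factors of the PEA3 family fell. Of 23 listed, 13 were lower and 1 higher, with a median of -0.66, and MYC and CCND1 are also Wnt targets. ETV4, a PEA3 factor, read 10.29, 10.22 and 10.23 in siCtrl and 8.73, 7.95 and 8.03 in sißCat-both, a 4.04-fold fall (limma adjusted p = 3.11e-07). DUSP6, the phosphatase that switches ERK off, read 8.90, 8.81 and 9.02 against 7.55, 7.49 and 8.08, and SPRY4, a Sprouty inhibitor of receptor signalling, 8.71, 8.80 and 8.88 against 7.57, 6.72 and 7.05. All these values were below every control array. ETV5 fell by 0.89, SPRY2 by 0.74 and FOSL1, an AP-1 component, by 1.12. JUN, another AP-1 subunit, rose by 0.71 ± 0.12. FOS differed by -0.18, DUSP4 by -0.13 and ETV1 by 0.03, none passing the test. With the mean of its probe sets FOS passed it.

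For ERK feedback genes sißCat-both also lay below sißCat-mut. The list had 11 genes lower and 0 higher there (11.6% of all genes were lower), with a median of -0.33. EGR1, an immediate early gene, read 10.59, 10.01 and 10.09 in sißCat-mut, 9.13, 8.25 and 8.20 in siCtrl, 8.67, 7.60 and 8.07 in sißCat-WT and 7.91, 7.41 and 7.34 in sißCat-both. Its difference from sißCat-mut was -2.68 ± 0.28 (limma adjusted p = 1.7e-05) and that from siCtrl -0.97 ± 0.28 (adjusted p = 0.0155). The latter missed the threshold without the first siCtrl array or without the second sißCat-both array or the third (adjusted p = 0.0795, 0.0525 and 0.0598). DUSP6 read 9.37, 9.52 and 9.51 in sißCat-mut, above siCtrl, and sißCat-both was lower by 1.76. The difference from sißCat-mut was -1.57 for ETV4, -1.63 for SPRY4 and -1.81 for IER3, a survival gene induced by growth factors.

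**Figure D2:**
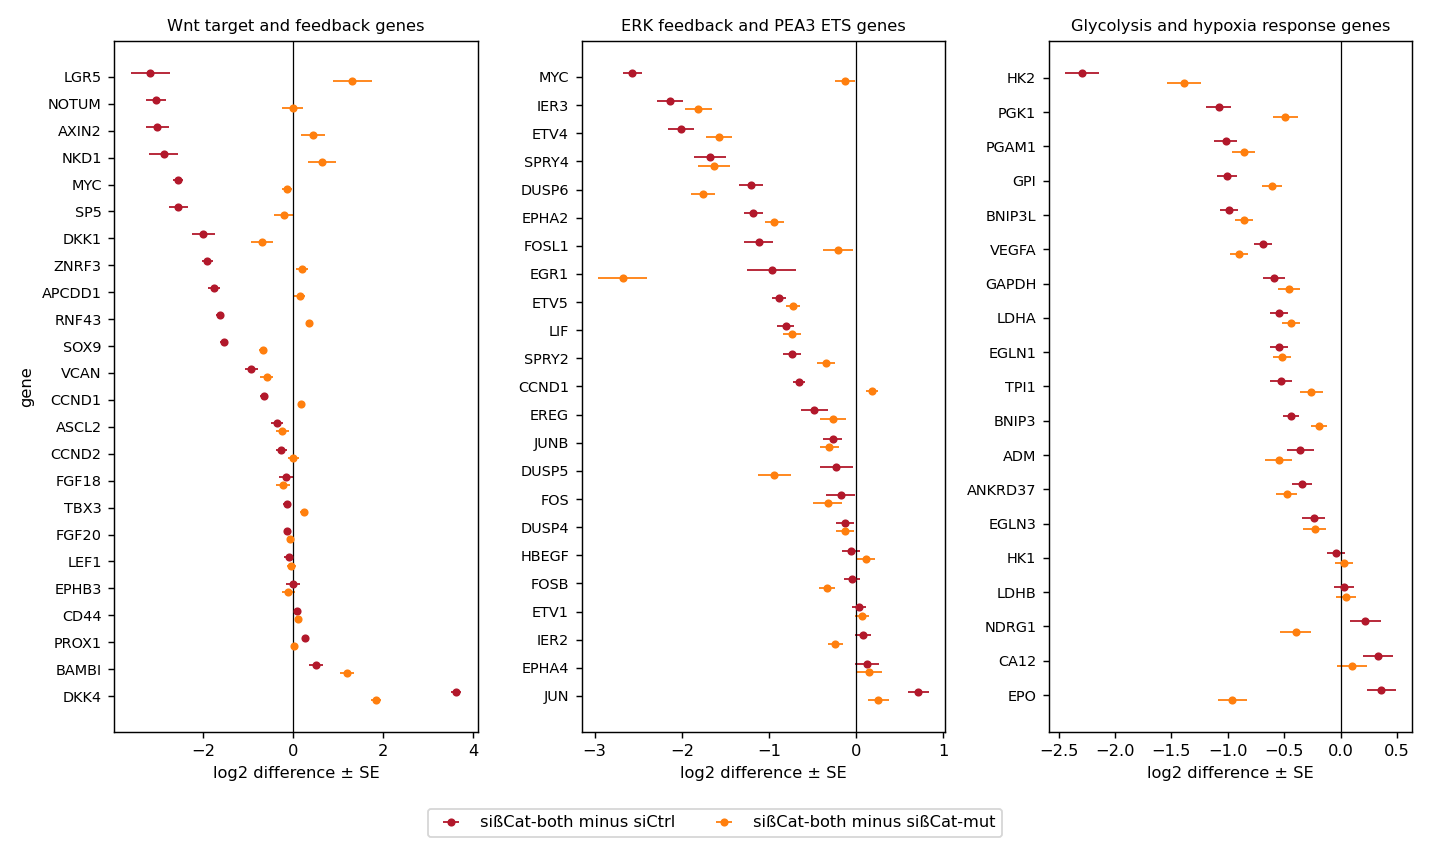
Log2 difference with its SE (x axis) for each measured gene (y axis) of 3 lists, sißCat-both minus siCtrl in red and minus sißCat-mut in orange. Of 24 Wnt targets 11 are at least 2-fold lower in red, and the list medians are -0.79 in red and 0.01 in orange, while for the ERK and glycolysis lists both colours lie below 0 for most members (medians -0.66 and -0.33, and -0.53 and -0.48).

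Receptors that feed this pathway changed singly. Of 43 receptor tyrosine kinases and growth factors 9 rose (20.9%) and 11 fell (25.6%), or 7 without the second siCtrl array. Of all genes 15.5% rose and 18.1% fell. EGFR, the epidermal growth factor receptor, rose 2.92-fold from 7.57, 7.65 and 7.82 to 9.09, 9.34 and 9.25. FGFR4, the receptor through which FGF19 curbs bile acid synthesis, fell by 0.75 ± 0.08, and its co-receptor KLB rose by 1.01 ± 0.08. EPHA2 fell by 1.18, AXL by 0.92 and FGFR1 by 1.23, the latter to 5.07, 4.94 and 4.97, near the floor. The hepatocyte growth factor receptor MET differed by -0.01 (limma adjusted p = 0.947). The insulin receptor INSR and its substrate IRS1 rose by 0.80 and 1.30.

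Genes of DNA replication and mitosis fell almost throughout. All 26 measured replication genes were lower, where 18.1% of all genes were, with a median of -0.90, and 43 of 49 mitosis genes, with a median of -0.81. MCM3, a subunit of the replicative helicase, read 10.77, 10.86 and 10.81 in siCtrl and 9.49, 8.78 and 8.84 in sißCat-both, a 3.43-fold fall (limma adjusted p = 5.34e-07). KIF14, a kinesin of cytokinesis, read 8.0, 7.99 and 7.91 against 6.42, 5.80 and 5.83. TOP2A, topoisomerase II of dividing cells, fell 2.05-fold, CDK1 by 1.15, PCNA by 1.09 and the proliferation marker MKI67 by 0.66. In 26 of 26 replication genes and 45 of 49 mitosis genes the first sißCat-both array was the highest of its group. Without it, 26 and 45 were lower. CENPI, a centromere protein, differed by -0.30 and did not pass the test, but fell by 0.49 without that array (adjusted p = 0.00211). Of 11 genes for D cyclins, their kinases and inhibitors and the RB family, 5 fell and 0 rose, led by CDK6, by 1.39 ± 0.10, while CDK4 differed by -0.21 (adjusted p = 0.0413 without the first sißCat-both array) and RB1 by 0.09. Against sißCat-mut 7 of the 26 replication genes (26.9%) and 19 of the 49 mitosis genes (38.8%) were lower, and 2 and 1 higher. Of all genes 11.6% were lower and 10.6% higher there.

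Promoters of MCM3 and TOP2A are shown for the motifs known from cell cycle genes. The E2F letters GGCGGGAA, both strands, occur in 3.75% of all promoters and in 6 of 21 replication genes (MCM3, CDT1, GINS2, PCNA, RRM1 and UHRF1). The CHR letters TTTGAA, both strands, occur in 10.4% of all promoters and in 19 of 43 mitosis genes, or 44.2%. CHR and TCF letters share TTTGA and differ in the base after it. MCM3 is at chr6:52284743-52284992 on the minus strand, with sites 173 and 24 bases before the start, and TOP2A at chr17:40417897-40418146 on the minus strand, with sites 194 and 151 bases before it (GRCh38.p14).
MCM3: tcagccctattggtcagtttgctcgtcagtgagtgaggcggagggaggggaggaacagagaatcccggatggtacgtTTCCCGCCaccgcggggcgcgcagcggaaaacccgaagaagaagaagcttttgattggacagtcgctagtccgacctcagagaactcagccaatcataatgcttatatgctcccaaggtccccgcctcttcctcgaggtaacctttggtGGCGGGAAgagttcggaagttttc
TOP2A: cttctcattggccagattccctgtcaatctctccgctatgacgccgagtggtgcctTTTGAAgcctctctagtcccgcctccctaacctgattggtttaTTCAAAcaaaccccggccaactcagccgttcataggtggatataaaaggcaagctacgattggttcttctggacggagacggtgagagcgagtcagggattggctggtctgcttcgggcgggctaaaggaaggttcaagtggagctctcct

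Genes that build ribosomes and serve protein synthesis fell. Of 38 ribosome biogenesis genes 36 were lower and 0 higher, with a median of -0.80. LYAR, a nucleolar factor, read 7.58, 7.52 and 7.55 in siCtrl and 6.24, 5.66 and 5.84 in sißCat-both, and BOP1, of the large-subunit processing complex, 8.97, 8.92 and 8.99 against 7.63, 7.27 and 7.19. The nucleolar proteins fibrillarin (FBL) and nucleolin (NCL) fell by 0.87 and 0.58. Cytosolic ribosomal protein genes fell less, 37 of 52 with 0 higher and a median of -0.36, from -1.0 for RPL29 to small differences such as -0.11 for RPS28, which did not pass the test. Of 23 translation factors and tRNA synthetases 18 were lower and 0 higher. The valine synthetase VARS1 read 8.87, 8.81 and 8.87 against 7.33, 6.88 and 7.19, a 3.29-fold fall, whereas those for alanine, arginine and serine (AARS1, RARS1 and SARS1) differed by 0.07, 0.12 and 0.14 and did not pass. Mitochondrial ribosomal proteins were mixed, 32 of 73 lower and 8 higher with a median of -0.18, and the number that rose was 4 without the third sißCat-both array. The respiratory chain list had 6 lower (20%) and 2 higher (6.67%) of 30, beside 18.1% and 15.5% of all genes. Most of these 30 belong to complexes III and IV, and no subunit of complex I was measured, so the list is partial.

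Nucleotide synthesis genes fell too. Of 21 purine and pyrimidine genes 14 fell and 3 rose, with a median of -0.59. PPAT and PFAS of the purine pathway fell by 1.07 and 1.17, IMPDH2, which commits to guanine nucleotides, by 1.08 and CTPS1, which makes CTP, by 1.13. MTHFD1L, which supplies formate from mitochondria, read 9.10, 9.25 and 9.27 in siCtrl and 7.82, 7.66 and 7.88 in sißCat-both. Isozymes differed: IMPDH1 was at -0.03 (limma adjusted p = 0.741) and CTPS2 rose by 0.33. The serine pathway enzymes PHGDH and PSPH were the others that rose, by 0.36 and 0.35. Against sißCat-mut the ribosome biogenesis list had 4 genes higher and 5 lower (median -0.02) and the nucleotide list 6 and 3, where 10.6% and 11.6% of all genes were called.

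**Figure D3:**
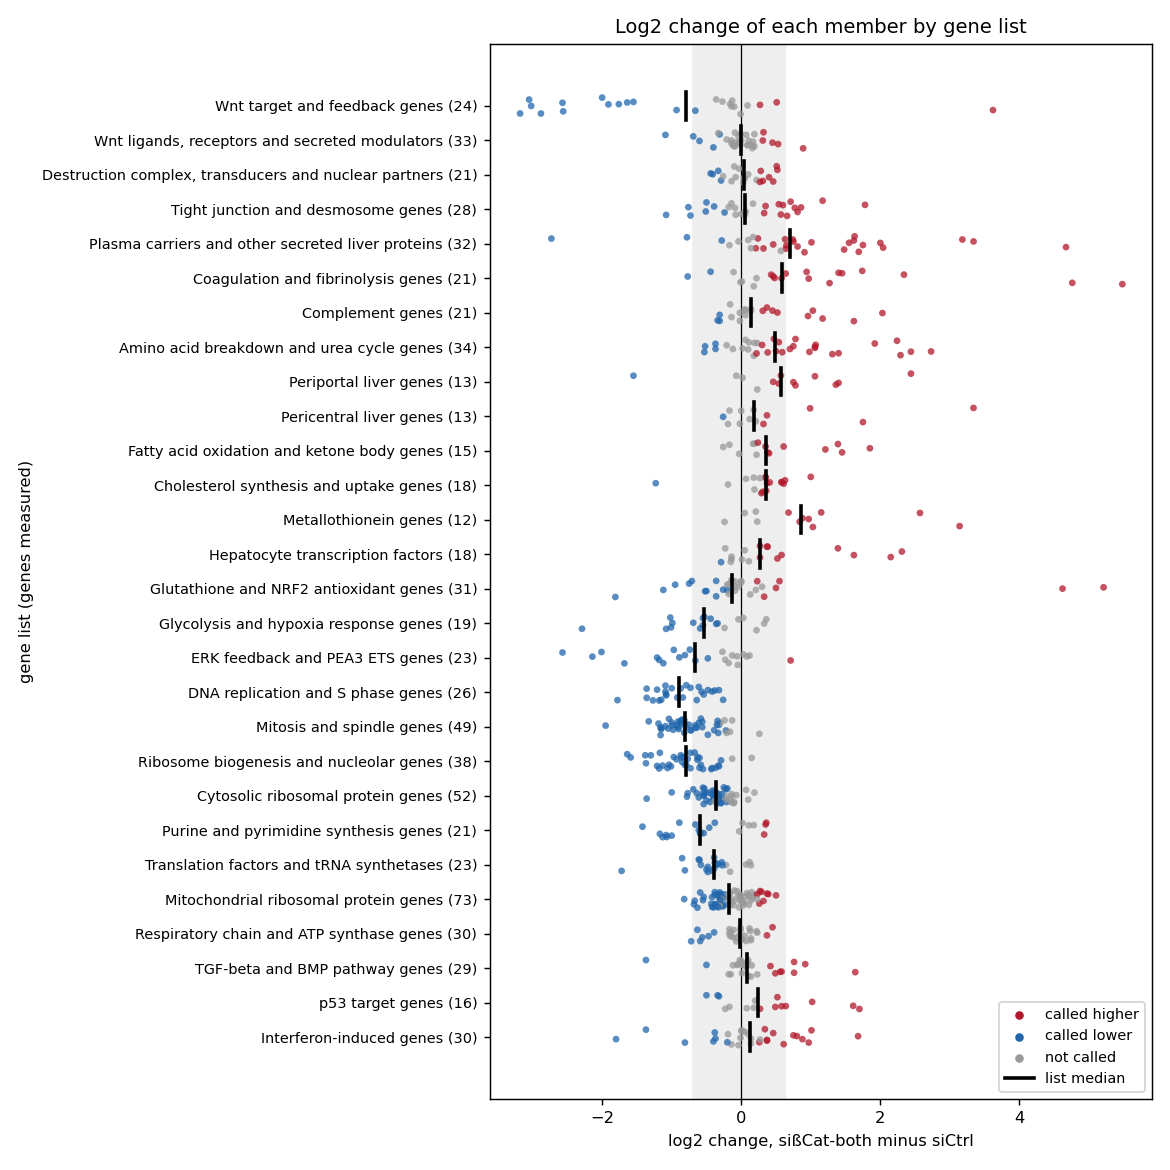
Log2 change, sißCat-both minus siCtrl (x axis), of every measured member of 28 gene lists (y axis, number measured in parentheses), 1 point per gene, red called higher, blue called lower and grey not called, with a black bar at the list median. The grey band spans the 5th to 95th percentile of all genes (-0.69 to 0.63), and the medians of the replication, mitosis, ribosome biogenesis and Wnt target lists lie below it while those of metallothioneins and plasma carriers lie above it.

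Among hepatocyte transcription factors 10 of 18 rose and 1 fell. CREB3L3, a liver factor of fasting and acute phase genes, read 9.04, 8.95 and 9.03 in siCtrl and 11.23, 11.40 and 11.32 in sißCat-both, and ONECUT1 (HNF6) 8.75, 8.79 and 8.88 against 10.85, 10.97 and 11.04. KLF15 rose by 1.62 ± 0.22. The pioneer factors FOXA1, FOXA2 and FOXA3 differed by 0.01, -0.14 and 0.11, none passing the test, and GATA6 fell by 0.29. Fetal and progenitor genes split, 7 higher (30.4%) and 8 lower (34.8%) of 23, beside 15.5% and 18.1% of all genes. HMGA1 and HMGA2, chromatin proteins of fetal and tumour cells, fell by 2.19 and 0.89, LIN28B, a block of let-7 maturation, by 1.06 and osteopontin (SPP1) 3.11-fold. PEG10, an imprinted gene of retroviral origin, rose by 1.13, while glypican 3 (GPC3) differed by 0.18 (limma adjusted p = 0.0512).

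Bone morphogenetic protein and SMAD genes rose more than they fell, 8 against 2 of 29 (27.6% and 6.9%), beside 15.5% and 18.1% of all genes. SMAD4, the shared partner of the pathway, rose by 0.76 ± 0.07, with SMAD5 at 0.58, the inhibitory SMAD7 at 0.76 and SKIL at 0.92. HJV, hemojuvelin, the co-receptor that drives hepcidin, went from 3.18, 3.75 and 3.39 to 5.09, 4.85 and 5.28. Hepcidin (HAMP) itself read 10.39, 10.24 and 10.38 against 12.09, 11.95 and 12.22, a 3.37-fold rise (limma adjusted p = 1.3e-07). The ligand BMP4 fell 2.59-fold and BMP2 rose by 0.56. SMAD2 differed by -0.05 without passing. Of 27 mesenchymal and matrix genes 4 rose (14.8%) and 7 fell (25.9%), beside 15.5% and 18.1% of all genes. SNAI2, a repressor of epithelial genes, read 5.95, 5.71 and 5.95 against 9.90, 10.13 and 10.39, and CEMIP, a hyaluronan-degrading protein, 8.36, 8.89 and 9.16 against 5.67, 4.93 and 4.88. The collagen cross-linker LOX fell 3.05-fold, ZEB1 by 0.42 and fibronectin (FN1) differed by 0.07.

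Stress and defence lists were mixed. Among all genes 15.5% rose and 18.1% fell. Of 16 p53 targets 8 rose and 3 fell, with TP53INP1 and SESN2 higher by 1.70 and 1.61 and cyclin G1 (CCNG1) lower by 0.32. Of 22 ATF4 and unfolded protein genes 7 rose and 7 fell, the latter 4 without the second sißCat-both array. The chaperone HYOU1 fell by 0.86 and STC2 by 1.30, whereas ERN1, a sensor of unfolded protein, rose by 0.75. Interferon-induced genes had 12 higher and 7 lower of 30, the 7 becoming 4 without the first siCtrl array or the second sißCat-both array. XAF1 rose by 1.68 ± 0.14 and IFIH1, a sensor of double-stranded RNA, by 0.80, while the membrane proteins IFITM1 and IFITM2, of a family with close copies, fell by 1.37 and 1.80. ISG15 was at 6.98, 6.82 and 6.93 in siCtrl and 6.73, 7.21 and 6.79 in sißCat-both. Among innate defence genes the cytokines IL18 and CXCL8 rose by 3.24 and 2.59, from 4.83, 5.43 and 5.81 and from 4.08, 3.74 and 4.18, and ICAM1 fell by 0.98. LBP, which binds bacterial lipopolysaccharide, rose by 2.28. CCL20 differed by -0.10 (limma adjusted p = 0.506).

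Some genes set sißCat-both apart from every other group. For these, loss of both forms and other effects of the siRNA of this group cannot be told apart. Higher than in siCtrl, sißCat-WT and sißCat-mut, each by the test, were 845 genes (5.68%), and lower 898 (6.03%). The 25 largest increases were all higher than in sißCat-WT, and 23 also than in sißCat-mut. Of the 25 largest decreases 25 were lower than in sißCat-WT but 12 lower, 1 higher and 12 not called against sißCat-mut. Among the genes highest against all 3, AADAC read 7.99, 8.02 and 8.58 in sißCat-both and 3.82 to 5.53 in the other 9 arrays. FLRT3, an adhesion and FGF-signalling protein, read 5.75, 6.12 and 5.94 against 3.08 to 3.49 elsewhere, from below the median of the arrays. OSBPL6, an oxysterol-binding relative, SLPI, a secreted inhibitor of leukocyte proteases, and ELOVL3, a fatty acid elongase, were higher than in each group by at least 2.67, 2.15 and 2.19.

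The genes lowest against all 3 groups were led by IGFBP1. It read 7.40, 7.78 and 8.69 in sißCat-both, 10.68, 10.53 and 10.86 in siCtrl, 9.66 to 10.26 in sißCat-WT and 11.22, 11.30 and 11.25 in sißCat-mut. TMC7, a transmembrane channel-like protein, read 7.24, 6.70 and 6.51 against 8.69 to 9.72 in the other 9 arrays. Below each group too were IER3, SPRY4, MAB21L3, ETV4, IFITM2, the kainate receptor partner NETO2, HK2 and KIF14. IER3, SPRY4 and ETV4 were on the ERK list.

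For some genes sißCat-both was lower than sißCat-mut and not lower than siCtrl. HAL read 10.13, 10.30 and 9.81 in sißCat-mut, 8.0, 8.16 and 8.43 in sißCat-both and 5.51, 5.59 and 6.19 in siCtrl. VNN1, pantetheinase, read 7.24, 7.55 and 8.20 in sißCat-mut and 4.49, 4.70 and 5.08 in sißCat-both, a difference of -2.91 ± 0.21 (limma adjusted p = 1.36e-06), and differed from siCtrl by 0.57 (adjusted p = 0.055). The latter passed the threshold under 7 of 20 alternatives, with adjusted p of 0.0428 with the replicate block, 0.0156 with only the groups compared and 0.212 without the third sißCat-both array. The bile acid exporter subunits SLC51A and SLC51B differed from sißCat-mut by -1.14 and -1.43 and from siCtrl by 0.56 and 1.1. In each of these sißCat-WT lay below sißCat-both, for HAL by 3.30, VNN1 by 0.80, SLC51A by 1.43 and SLC51B by 0.52.

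**Figure D4:**
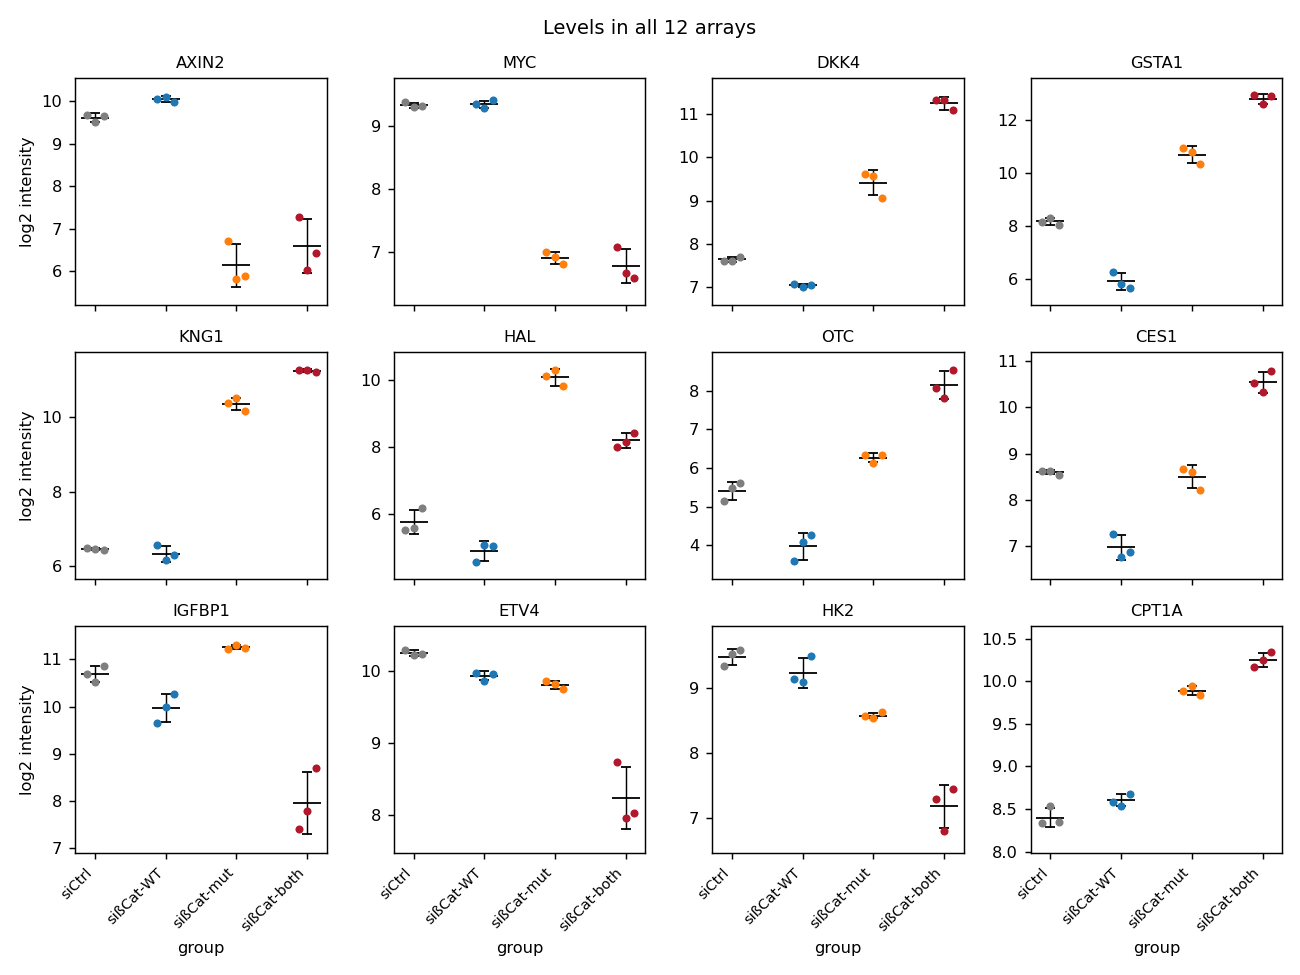
Log2 intensity (y axis, its own range in each panel) of 12 genes in the 4 groups (x axis), 1 point per array, with the group mean and SD as a bar. AXIN2 and MYC are low in both sißCat-mut and sißCat-both, GSTA1, KNG1, DKK4, OTC and CPT1A step up from sißCat-mut to sißCat-both, HAL is lower in sißCat-both than in sißCat-mut, and IGFBP1, ETV4 and HK2 are lowest and CES1 highest in sißCat-both.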

How the data were processed

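RNA of the 12 samples was measured on Affymetrix arrays. The authors deposited log2 intensities per probe set, for which the submitters' processing notes name RMA and version 1.1 of Affymetrix Expression Console. RMA gives every array the same distribution, which hides a change common to most genes. Of 53617 probe sets 16098 carried 1 gene symbol in the platform annotation, 0 several and 37519 none. The probe set of highest mean stood for each of 14884 genes, of which 779 had several.

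Group means of all 12 arrays were fitted with limma 3.58.1 (R 4.3.3, lmFit and eBayes) on 8 residual degrees of freedom, and p-values were adjusted by Benjamini-Hochberg over all 14884 genes. No array duplicated another. On simulated data of 14884 genes for sißCat-both minus siCtrl, 79.1% of changes of 0.5, 98.5% of changes of 1 and 100% of changes of 2 (log2) were recovered, with 10 false among 195 calls. Alternatives were another normalization, dim genes left out, the mean of probe sets, another variance prior, array weights, only the groups compared, a minimum change, a replicate block and leaving out each array. The samples share replicate numbers. Same-numbered deviations of sißCat-both and siCtrl correlated at 0.001, -0.047 and 0.12, so the numbers did not pair them. Those of sißCat-both and sißCat-WT correlated at 0.115, 0.155 and 0.134, which meets the rule for pairing, from the data and not the labels, and those of sißCat-both and sißCat-mut at 0.117, 0.008 and 0.108.

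The members and gene lists were chosen with earlier results of these data known. Named were the 25 called, non-overlapping genes of largest change each way, the 10 each way that stood furthest from all 3 groups, and in each list up to 6 called genes each way and up to 4 uncalled ones of highest level. The text names 227 of the 568 genes this rule gives, a further choice made with their values in view, and another 37 that fall outside it and were also chosen after their values were seen. Promoter sequences are from RefSeq (GRCh38.p14). Lists of serpins, proteasome subunits and histones had 0 measured genes and were not analysed here.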

Additional observations from a re-analysis of the deposited data

How the results depend on the processing

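Requiring a change above 0.5 on the log2 scale (treat) left 882 genes against siCtrl (416 higher, 466 lower), 281 against sißCat-mut (119 higher, 162 lower) and 1217 against sißCat-WT (573 higher, 644 lower), as that test's construction asks for larger changes. The counts of called genes over all 14884 genes otherwise stayed within 1.5 times their main value under the alternatives run. Counts within gene lists did not in 135 cases, those of treat included, and only some of these are given with their lists. With 1 array left out at a time, 4364 to 4998 genes were called against siCtrl, 2590 to 3371 against sißCat-mut and 4820 to 5387 against sißCat-WT. With the replicate block the counts were 5206, 3523 and 5623. Of the 264 genes named, 159 kept direction and side of the threshold under all 21 alternatives, and another 12 under the 20 that could be run, since leaving out dim genes removes them. Not called in the main fit, MTF1 passed the threshold under 1 alternative, GPC3 and RPS28 under 2 and ITIH2 under 3. The genes whose sign turned had all missed the threshold. Under renewed quantile normalization IMPDH1 was at 0.02, ISG15 at 0.04, MET at 0.04 and SCD at -0.13, and with array weights ISG15 was at 0.02, while FOXA1 and SCD were at -0.0. With 1 array left out at a time the ranges were -0.01 to 0.08 for ETV1, -0.02 to 0.05 for F2, -0.06 to 0.05 for FOXA1, -0.1 to 0.03 for HK1, -0.15 to 0.09 for ISG15, -0.08 to 0.04 for MET, -0.03 to 0.03 for SCD and -0.13 to 0.02 for SMAD2. The cause was not tested. The number of arrays, 3 per group, limits the precision, and levels near the floor limit the size of changes.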

Other observations

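Probe sets without a gene symbol were fitted separately. Of 37519 such probe sets 5090 (13.6%) differed between sißCat-both and siCtrl at a limma adjusted p under 0.05. In sißCat-both 2459 were the higher and 2631 the lower, with changes of at least 2-fold in 980. Of 23 small Cajal body RNA genes (SCARNA family) 5 rose (21.7%) and 6 fell (26.1%), beside 15.5% and 18.1% of all genes. Of 40 actin and motility genes 10 rose (25%) and 14 fell (35%), and of 23 lysosome genes 9 rose (39.1%) and 1 fell (4.35%). Without the first siCtrl array 5 actin genes were higher. Of 15 YAP targets 3 rose (20%) and 4 fell (26.7%).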
